A study of Mus musculus with 6 samples.

Results

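Levels of 6 genes of the extracellular matrix are described in the mouse mesonephros, in embryos with both or with only 1 allele of the transcription factor gene Gata2 floxed for deletion in mesenchyme. They are decorin (Dcn), lumican (Lum), biglycan (Bgn), fibromodulin (Fmod), osteoglycin (Ogn) and versican (Vcan), chosen by name. All 6 were among the 14366 genes of the deposited data and all 6 passed the filter on low values (12300 genes in all). The Gata2cKO group held 3 samples of genotype Osr2Cre+;Gata2-flox/flox and the control group 3 samples of genotype Osr2Cre+;Gata2-flox/+, so both groups carried the Osr2-driven Cre recombinase and at least 1 floxed allele, and the controls are no wild types. All were mesonephroi of male embryos at embryonic day 16.5. This tissue holds the Wolffian duct, from which the epididymis forms. Osr2 is expressed in mesenchyme, so cells without the recombinase keep Gata2 in both groups. The labels do not say if replicates were separate embryos or pools, and every p-value here rests on the scatter among these libraries, which may be technical.

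Small leucine-rich proteoglycans are secreted proteins built of leucine-rich repeats that bind collagen and tune the width and spacing of its fibrils. Decorin and biglycan, of class I, carry chondroitin or dermatan sulfate chains and also bind growth factors such as TGF-beta. Lumican and fibromodulin, of class II, carry keratan sulfate, and osteoglycin belongs to class III. Versican is a much larger chondroitin sulfate proteoglycan that binds hyaluronan and is typical of loose, hydrated embryonic mesenchyme.

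The one member that passed the test was Vcan, which was lower in Gata2cKO mesonephroi. Among the small leucine-rich proteoglycans Dcn, Lum, Fmod and Ogn had higher values in all 3 Gata2cKO libraries than in all 3 control libraries, and none of these passed the test. Bgn overlapped between the groups. In counts, 0 of the 6 members were called higher and 1 lower (limma adjusted p under 0.05), where 5.73% of all tested genes were called higher and 1.74% lower (7.47% in either direction). Groups that did not overlap were seen for 4 members with Gata2cKO higher and 1 with Gata2cKO lower, against 23.4% and 10.5% of all tested genes (33.9% in either direction). The unadjusted limma p, which takes no account of the number of genes tested, was 0.000839 for Vcan, 0.0147 for Dcn and 0.0176 for Ogn. It was 0.0503 for Lum, 0.128 for Fmod and 0.606 for Bgn. How many of all tested genes have values as small was not counted, so only the adjusted p is read as a call.

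The Vcan gene lies on chromosome 13 from 89655312 to 89742509 on the minus strand (GRCm38, GENCODE M21, which is the source of all gene positions given). Ogn lies on the same chromosome from 49608046 to 49624501, beside the class I gene asporin (Aspn, 49544443 to 49567565), described further on. Stretches of 250 bases before the RefSeq transcription start (GRCm38.p6, coding strand, 5′ to 3′) are shown for Vcan, the member that was called, for Ogn and its neighbour Aspn, and for Fmod, the one of 4 members with a stretch in the RefSeq set that holds a GATA motif. Capitals mark GATA motifs (spelled AGATAA or, as further forms, AGATAG or else TGATAA or else TGATAG), the motif TATAAA and the motif CCAAT, each on either strand. The stretches are chr13:89742513-89742762 (minus strand) for Vcan, chr13:49607765-49608014 for Ogn, chr13:49544193-49544442 for Aspn and chr1:134037004-134037253 for Fmod.
Vcan: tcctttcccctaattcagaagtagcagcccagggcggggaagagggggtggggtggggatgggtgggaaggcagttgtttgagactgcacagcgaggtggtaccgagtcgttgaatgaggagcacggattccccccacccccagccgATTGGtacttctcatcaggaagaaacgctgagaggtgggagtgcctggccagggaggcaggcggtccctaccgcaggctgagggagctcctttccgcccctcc
Ogn: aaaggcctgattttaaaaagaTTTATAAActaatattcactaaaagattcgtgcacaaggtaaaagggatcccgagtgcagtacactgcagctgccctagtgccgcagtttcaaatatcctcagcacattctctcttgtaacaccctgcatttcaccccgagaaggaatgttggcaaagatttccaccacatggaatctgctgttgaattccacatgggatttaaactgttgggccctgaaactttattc
Aspn: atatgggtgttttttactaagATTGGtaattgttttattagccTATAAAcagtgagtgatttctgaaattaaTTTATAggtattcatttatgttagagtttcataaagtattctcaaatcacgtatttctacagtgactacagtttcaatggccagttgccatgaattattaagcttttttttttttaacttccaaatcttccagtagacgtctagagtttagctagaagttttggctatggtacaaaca
Fmod: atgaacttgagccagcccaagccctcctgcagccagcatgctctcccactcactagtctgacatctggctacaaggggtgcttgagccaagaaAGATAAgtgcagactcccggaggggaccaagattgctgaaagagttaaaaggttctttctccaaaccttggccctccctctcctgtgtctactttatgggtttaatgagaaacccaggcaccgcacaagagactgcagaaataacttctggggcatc

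The Fmod stretch holds 1 GATA motif, 157 bases before the start. No GATA motif was found in these letters before Vcan, Ogn, Aspn or Bgn, and 26.5% of 32851 such stretches in the genome hold one. The Vcan stretch holds 1 CCAAT motif on the other strand, 103 bases before the start, and no TATAAA. The stretches before Ogn and Aspn each hold TATAAA on both strands, overlapping in Ogn and more than 170 bases before the start in both genes. TATAAA was found in 12.4% and CCAAT in 33.8% of all stretches. The GC content was 62.4% before Vcan, 64.4% before Bgn, 51.2% before Fmod, 42.0% before Ogn and 30.0% before Aspn, against a median of 52.4% over all stretches. A motif in this window is a description of letters and not a bound site.

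Levels were taken to be TPM, judged from their sums per library, a unit scaled for gene length and library total that keeps no read depth, so errors come from the replicates alone. Gata2 had 431, 530 and 416 TPM in Gata2cKO replicates 1, 2 and 3 and 384, 464 and 546 TPM in control replicates 1, 2 and 3 (limma adjusted p = 0.968). These are values for the whole gene, with none for the floxed exons, and so they do not check the labels. Osr2, whose gene drives the Cre, fell to 127 ± 9.35 TPM in Gata2cKO, against 261 ± 54.1 TPM in controls (SD, n = 3 each; limma adjusted p = 0.0136). Control replicate 1 stood apart from the other 5 libraries. Its mitochondrially encoded share of TPM was 21.9%, against 13.2% to 15.2% in Gata2cKO and 14.2% to 16.3% in the other controls, and its globin share was 1.83%, against 1.05% to 1.38% in Gata2cKO and 0.688% and 0.783% in the other controls. Results without it are therefore given for Vcan, Fmod and Ogn, and for Dcn, Lum and Bgn the range over removals of any library.

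Versican was measured at 59.3, 54.3 and 45.3 TPM in Gata2cKO replicates 1, 2 and 3, against 99.6, 79.1 and 79.9 TPM in control replicates 1, 2 and 3. Every Gata2cKO library lay below every control library, and the highest value was that of control replicate 1. The mean was 52.9 ± 7.11 TPM in Gata2cKO and 86.2 ± 11.6 TPM in controls (SD, n = 3 each), a ratio of 0.614. On the log2(TPM + 1) scale Vcan fell by 0.69 (SE 0.13, 95% interval -0.998 to -0.389, limma adjusted p = 0.0265). Without control replicate 1 it fell by 0.59 and kept its call (adjusted p = 0.0216). Each of the other 5 removals of a library took the adjusted p over the threshold, to between 0.0564 and 0.0879. The same 5 removals lowered the share of all tested genes called from 7.47% to between 0.943% and 2.23%. Losses of calls under removal, here and below, are to be read beside that general loss. Removal of control replicate 1 raised the share called to 12.5%, and calls kept or gained without it are to be read beside that rise. The authors' deposited table gives Vcan a log2 fold change of -0.76 and an adjusted p of 2.18e-08. GENCODE M21 lists 9 transcripts of Vcan, of which 8 are coding with exonic lengths from 294 to 12427 bases, and a gene-level TPM does not show which of them changed. Vcan also overlaps the antisense gene Gm4117 and a pseudogene on the other strand.

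**Figure D1:**
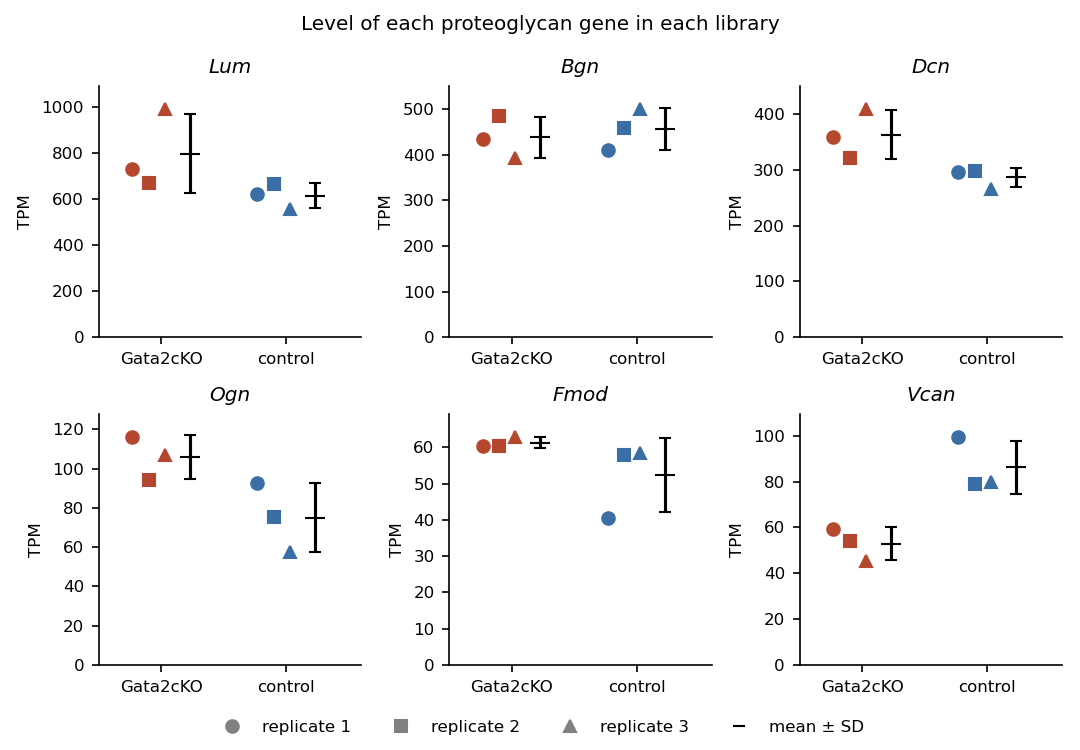
Level of each member in TPM (vertical axes, each from 0) in the 3 Gata2cKO and 3 control libraries. Points are libraries, with shape giving the replicate number, and bars are means ± SD; Vcan lies between 45.3 and 59.3 TPM in Gata2cKO and between 79.1 and 99.6 TPM in controls, while Bgn overlaps between the groups.

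Decorin, which binds collagen and TGF-beta, had 359, 322 and 410 TPM in Gata2cKO replicates 1, 2 and 3 and 296, 297 and 266 TPM in control replicates 1, 2 and 3. The groups did not overlap, and the spread was wider in Gata2cKO (363 ± 44.2 TPM) than in controls (287 ± 17.6 TPM; SD, n = 3 each). The log2 difference was 0.34 (SE 0.11, 95% interval 0.09 to 0.58) and did not pass (limma adjusted p = 0.0958). Over removals of a library it ran from 0.25 to 0.42 and passed in none (adjusted p = 0.0724 to 0.261). The authors' deposited table gives 0.29 with an adjusted p of 0.0790.

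Biglycan, the close relative of decorin on the X chromosome (73483602 to 73495933), had 435, 485 and 393 TPM in Gata2cKO replicates 1, 2 and 3 and 410, 459 and 501 TPM in control replicates 1, 2 and 3. The groups overlapped over most of their range. The mean was 438 ± 45.6 TPM in Gata2cKO and 456 ± 45.5 TPM in controls (SD, n = 3 each), with a log2 difference of -0.06 and a 95% interval from -0.32 to 0.20 (limma adjusted p = 0.764). The sign was positive without Gata2cKO replicate 3 (0.01) or without control replicate 3 (0.0090).

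Lumican, which regulates collagen fibrils and was the most abundant of the 6, had 730, 668 and 990 TPM in Gata2cKO replicates 1, 2 and 3 and 623, 665 and 555 TPM in control replicates 1, 2 and 3. The groups did not overlap, but Gata2cKO replicate 2 and control replicate 2 lay less than 3 TPM apart, and Gata2cKO replicate 3 was far above the rest. The mean was 796 ± 171 TPM in Gata2cKO and 614 ± 55.5 TPM in controls (SD, n = 3 each; log2 difference 0.36, SE 0.15, limma adjusted p = 0.183). Without Gata2cKO replicate 3 the log2 difference was 0.19 (adjusted p = 0.423). Over removals of any library it ran from 0.19 to 0.47 and passed in none (adjusted p = 0.141 to 0.423).

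Fibromodulin, a class II relative of lumican (chromosome 1, 134037254 to 134048277), was nearly level in Gata2cKO at 60.4, 60.2 and 63.0 TPM, against 40.5, 57.9 and 58.6 TPM in control replicates 1, 2 and 3. The low value was that of control replicate 1. The log2 difference was 0.24 (SE 0.14, limma adjusted p = 0.311), and without control replicate 1 it was 0.07 (adjusted p = 0.527).

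Osteoglycin had 116, 94.1 and 107 TPM in Gata2cKO replicates 1, 2 and 3 and 92.5, 75.3 and 57.4 TPM in control replicates 1, 2 and 3. The groups were separated by less than 2 TPM, with control replicate 1 the highest of its group. The mean was 106 ± 11.2 TPM in Gata2cKO and 75.1 ± 17.6 TPM in controls (SD, n = 3 each), a ratio of 1.41. The log2 difference was 0.51 (SE 0.17, 95% interval 0.12 to 0.90), the largest of the 5 small leucine-rich proteoglycans among the members, and did not pass with all libraries (limma adjusted p = 0.106). It passed without control replicate 1 (log2 fold change 0.67, adjusted p = 0.0226). That removal also raised the share of all tested genes called from 7.47% to 12.5%. None of the other 5 removals passed (adjusted p = 0.141 to 0.284), and without control replicate 3 the log2 difference was 0.33 (adjusted p = 0.195). The authors' deposited table, which calls 13.3% of its genes (6.69% higher and 6.58% lower), gives Ogn 0.44 with an adjusted p of 0.0368, so that 2 of the 6 members, Ogn and Vcan, are called there. Ogn and Aspn lie on the strand opposite to Cenpp, a centromere protein gene whose span covers both. Whether counting used strand is not stated, and Cenpp had a mean of 0.605 TPM in Gata2cKO and 0.624 TPM in controls.

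The order of the levels differed between the groups in the place of Vcan. In Gata2cKO the order by mean TPM was Lum, Bgn, Dcn, Ogn, Fmod and Vcan, and in controls it was Lum, Bgn, Dcn, Vcan, Ogn and Fmod. In Gata2cKO the only neighbours in this order that overlapped were Bgn and Dcn, and Dcn exceeded Bgn in replicate 3. In controls Vcan overlapped Ogn and Ogn overlapped Fmod. Among all 14366 genes Vcan held rank 2447 in Gata2cKO and rank 1491 in controls, and Lum rank 167 in Gata2cKO and rank 206 in controls. Within groups the coefficient of variation was 2.48% in Gata2cKO and 19.6% in controls for Fmod, 10.6% in Gata2cKO and 23.4% in controls for Ogn, and 21.5% in Gata2cKO and 9.04% in controls for Lum, against medians of 7.10% in Gata2cKO and 8.93% in controls over 4925 genes at 20 TPM or more.

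Ratios between members within a library do not depend on how libraries are scaled. The ratio of Vcan to Dcn was 0.165, 0.169 and 0.110 in Gata2cKO replicates 1, 2 and 3 and 0.336, 0.266 and 0.300 in control replicates 1, 2 and 3, with no overlap. The mean was 0.148 ± 0.0327 in Gata2cKO and 0.301 ± 0.0351 in controls (SD, n = 3 each; two-sided exact permutation p = 0.10, the smallest that 3 against 3 libraries can give). Relative to the summed TPM of the 5 small leucine-rich proteoglycans, Vcan stood at 0.0304 ± 0.00642 in Gata2cKO and 0.0582 ± 0.00893 in controls. That sum was 1701, 1628 and 1964 TPM in Gata2cKO and 1462, 1554 and 1438 TPM in controls. By contrast the ratio of Lum to Dcn was 2.18 ± 0.210 in Gata2cKO and 2.14 ± 0.0840 in controls (exact permutation p = 1), and the groups overlapped. The ratio of Bgn to Dcn was 1.23 ± 0.273 in Gata2cKO and 1.60 ± 0.253 in controls, also with overlap (exact permutation p = 0.20). Against the fibrillar collagen gene Col1a1, Vcan stood at 0.0122 ± 0.00299 in Gata2cKO and 0.0221 ± 0.00705 in controls with no overlap (exact permutation p = 0.10), while Dcn and Lum relative to Col1a1 overlapped. Of the 12 ratios and sums computed, none can pass a threshold of 0.05 in this design.

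**Figure D2:**
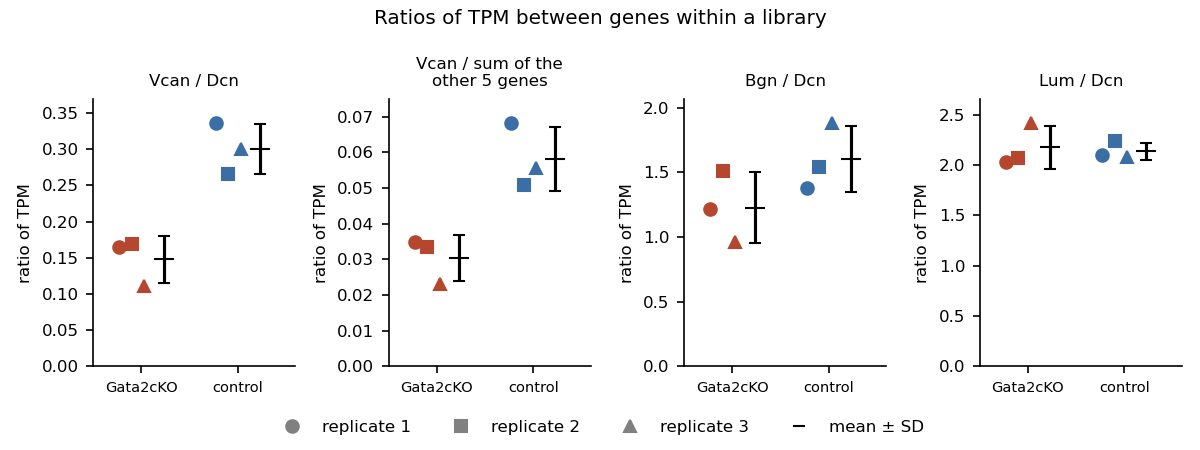
Ratio of TPM between genes within each library (vertical axes, each from 0), with Gata2cKO left and control right; points are libraries and bars means ± SD. The ratio of Vcan to Dcn is 0.110 to 0.169 in Gata2cKO and 0.266 to 0.336 in controls, and the ratio of Lum to Dcn overlaps between the groups.

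Kera and Aspn, small leucine-rich proteoglycan genes outside the 6, rose about 3-fold. They belong to a list of 13 further genes of the family. Of these the deposited data held 10, the filter kept 9, 2 rose and 0 fell (median log2 fold change 0.31, where the median of all tested genes was 0.05). Kera encodes keratocan, a class II keratan sulfate proteoglycan known from the cornea. Aspn, a class I relative of decorin and biglycan, had 72.4, 67.6 and 69.5 TPM in Gata2cKO replicates 1, 2 and 3 and 26.4, 22.8 and 18.7 TPM in control replicates 1, 2 and 3. It rose 3.08-fold (log2 fold change 1.60, SE 0.12, limma adjusted p = 0.00198). Kera had 52.1, 55.7 and 65.5 TPM in Gata2cKO and 12.2, 20.6 and 19.9 TPM in controls, and it rose 3.29-fold (log2 fold change 1.69, SE 0.19, limma adjusted p = 0.00840). No removal of a single library ended either call. In the remaining 7 tested genes of the list the log2 difference ran from -0.03 for Epyc to 0.38 for Prelp, and none passed.

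Several of these genes are neighbours. Dcn (chromosome 10, 97479609 to 97518143), Lum (97565128 to 97572703), Kera (97606879 to 97613692) and Epyc (97644068 to 97682454) follow each other on the plus strand with no other protein-coding gene between them. In this row Kera rose, Dcn and Lum had log2 differences of 0.34 and 0.36, and Epyc, at 1.94 TPM in Gata2cKO and 1.99 TPM in controls, had -0.03. On chromosome 13 Ecm2, Aspn, Omd and Ogn form a second row, where Aspn rose, Ogn had 0.51, Ecm2 stayed under the filter at 0.868 TPM in Gata2cKO and 1.08 TPM in controls, and Omd was not analysed here. A further row on chromosome 1 holds Optc, Prelp and Fmod, and no gene in it was called. Their log2 differences were 0.11, 0.38 and 0.24 (limma adjusted p = 0.607, 0.0777 and 0.311).

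**Figure D3:**
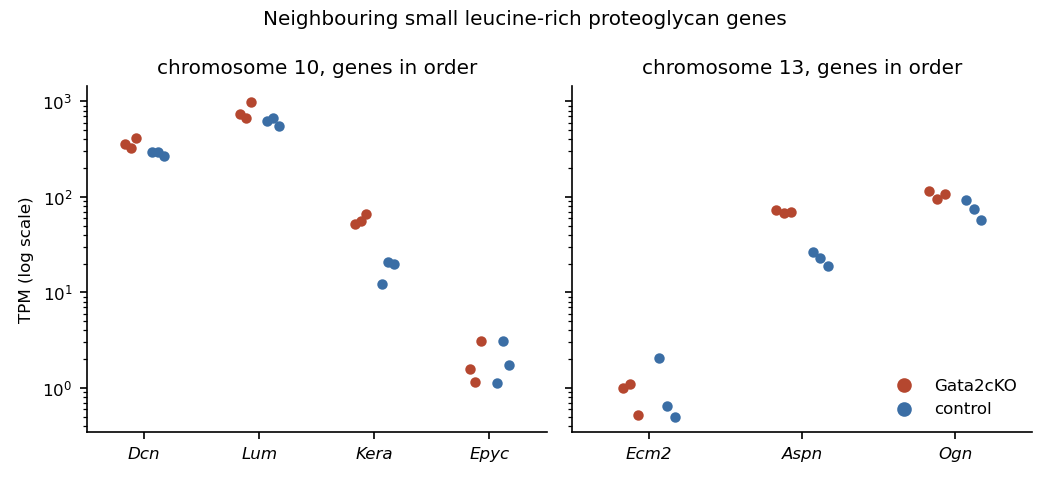
TPM on a log scale of small leucine-rich proteoglycan genes in their order along chromosomes 10 and 13, with Gata2cKO left of control at each gene; each point is a library. Kera and Aspn are separated between the groups by about 3-fold, whereas Dcn, Lum and Ogn are higher in Gata2cKO by less and Epyc and Ecm2 lie between 0.499 and 3.11 TPM and overlap.

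**Figure D4:**
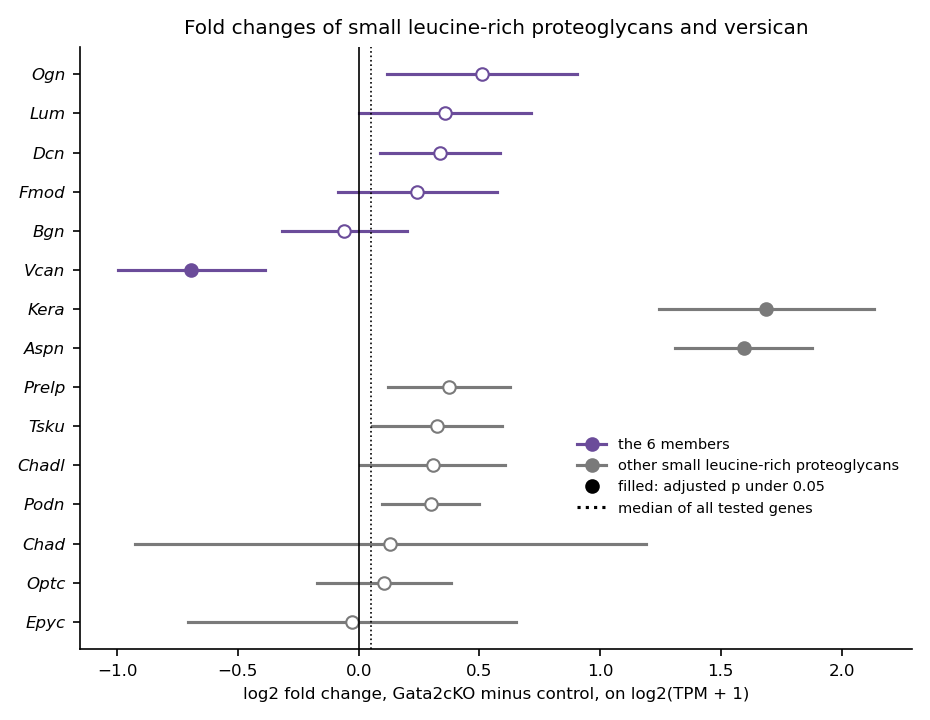
Difference in log2(TPM + 1), Gata2cKO minus control (horizontal axis), with 95% intervals for the 6 members and the 9 tested genes of the list of other small leucine-rich proteoglycans. Filled points passed the test; Vcan lies at -0.69, Aspn at 1.60 and Kera at 1.69, and the dotted line marks the median of all tested genes at 0.05.

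Genes that make, bind or cut these proteoglycans were counted on 7 further lists, and with the list above they held 86 tested genes, of which 15 rose (17.4%) and 1 fell (1.16%), against 5.73% and 1.74% of all tested genes. The median log2 fold change of the 86 was 0.15. The lists were written with earlier results of these data known, so these shares are a description and no test of enrichment. Each list is described by its count and median only.

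Among enzymes of chondroitin and dermatan sulfate chains 2 of 16 tested genes rose and 0 fell (median 0.14). They were Fam20b, the kinase that phosphorylates the xylose at the base of the chain, at 14.3 ± 0.737 TPM in Gata2cKO and 9.65 ± 0.612 TPM in controls (limma adjusted p = 0.0178), and Dse, an epimerase that turns chondroitin into dermatan sulfate, at 11.9 ± 0.814 TPM in Gata2cKO and 8.66 ± 0.761 TPM in controls (adjusted p = 0.0400; SD, n = 3 each). Dsel, a related epimerase gene named after its values were seen, was more abundant and did not pass. It was at 85.8 ± 5.67 TPM in Gata2cKO and 87.1 ± 4.39 TPM in controls (limma adjusted p = 0.896). Of the keratan sulfate enzymes 1 of 5 rose (median 0.13), the sulfotransferase gene Chst1 at 22.2 ± 1.99 TPM in Gata2cKO and 16.7 ± 0.842 TPM in controls (adjusted p = 0.0452). Fam20b, Dse and Chst1 lost their calls in 5 or 6 of the 6 removals of a library, Dse also under 5 and Chst1 under 3 of the other 8 settings.

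For hyaluronan, the partner of versican, 2 of 12 tested genes of synthesis, turnover and uptake rose and 0 fell (median 0.10). Lyve1, the hyaluronan receptor of lymphatic endothelium, was at 9.88 ± 0.486 TPM in Gata2cKO and 6.75 ± 0.602 TPM in controls (limma adjusted p = 0.0253), and Tmem2, a cell-surface hyaluronidase, at 4.75 ± 0.425 TPM in Gata2cKO and 3.45 ± 0.0631 TPM in controls (adjusted p = 0.0493; SD, n = 3 each). For these genes 5 of the 6 removals ended the call. Tmem2 lost it also under 6 of the 8 other settings and Lyve1 under 1, without mitochondrial and globin genes. The synthase gene Has2, named after its values were seen, had 19.5, 18.6 and 17.6 TPM in Gata2cKO and 23.5, 24.1 and 22.5 TPM in controls, with no overlap, and did not pass (log2 difference -0.32, adjusted p = 0.0519). Has1, also named after its values were seen, was at 0.353 to 0.571 TPM in Gata2cKO, at 1.06 TPM in control replicate 3, at 1.103 TPM in control replicate 2 and at 9.56 TPM in control replicate 1. Of the lecticans and link proteins, the family of versican, 3 of 7 were in the deposited data and 0 of 2 tested passed. Hapln1 had a log2 difference of 0.24 (limma adjusted p = 0.176), and 0.27 with array weights (adjusted p = 0.0107). Array weights called 38.6% of all tested genes, and Hapln1 passed in 1 of the 14 settings, this one.

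Of 12 collagen genes whose products these proteoglycans bind 3 rose and 0 fell (median 0.20). Col5a2, a chain of the collagen that sets fibril width, was at 83.1 ± 3.67 TPM in Gata2cKO and 48.0 ± 3.57 TPM in controls (limma adjusted p = 0.00739) and kept its call in each removal. Col3a1 (2107 ± 118 TPM in Gata2cKO and 1606 ± 69.9 TPM in controls) and Col12a1 (32.4 ± 3.56 TPM in Gata2cKO and 23.5 ± 0.317 TPM in controls; SD, n = 3 each) passed at adjusted p = 0.0414 and 0.0350 and lost their calls in 5 removals. Of the 8 settings that kept all libraries, Col3a1 also lost its call without the filter, with median-of-ratios scaling and with the replicate block, and Col12a1 without mitochondrial and globin genes. Among proteases that cut versican or process these proteins 1 of 10 rose and 0 fell (median 0.03). This was Adamts15, an ADAMTS protease that cleaves versican, at 40.7, 49.9 and 39.2 TPM in Gata2cKO and 20.3, 25.7 and 26.1 TPM in controls (log2 fold change 0.82, adjusted p = 0.0169). It lost its call without Gata2cKO replicate 1 or 2.

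Of 20 tested ligands, receptors and matrix partners 4 rose and 1 fell (median 0.13). The fibrillin gene Fbn1 was at 14.2 ± 0.781 TPM in Gata2cKO and 7.98 ± 0.671 TPM in controls (limma adjusted p = 0.00901), and the integrin subunit gene Itgb1 at 155 ± 9.17 TPM in Gata2cKO and 104 ± 7.37 TPM in controls (adjusted p = 0.0149). Bmp2, a secreted signal of the TGF-beta family, fell to 10.5 ± 1.16 TPM in Gata2cKO, against 20.7 ± 3.84 TPM in controls (log2 fold change -0.91, adjusted p = 0.0175; SD, n = 3 each). Fbn1 kept its call whichever library was removed, Itgb1 in 4 of 6 and Bmp2 in 2 of 6. The remaining 2 that rose, Met and Tnc, lie outside the rule for named genes and were picked on their values.

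Markers of cell types also differed between the groups, and fewer cells of a type cannot be told apart from less RNA per cell in these bulk samples. Of the 11 urogenital mesenchyme markers all were in the deposited data, 5 of 10 tested fell, and their summed level was 1775 to 1940 TPM in Gata2cKO and 2196 to 2659 TPM in controls. The most abundant, Tcf21, was at 449 ± 15.2 TPM in Gata2cKO and 766 ± 63.2 TPM in controls (SD, n = 3 each). The list was mixed: 7 of the 10 had a negative sign and 3 a positive one. These 3 were Osr1, Pdgfra and Twist1 (log2 differences 0.36, 0.10 and 0.16), and none of them passed. For Osr1 and Twist1 control replicate 1 lay far below the other controls. Osr1 had 33.2, 84.0 and 87.2 TPM in control replicates 1, 2 and 3, against 76.4 to 89.4 TPM in Gata2cKO. Twist1 had 177, 380 and 386 TPM in control replicates 1, 2 and 3, against 286 to 360 TPM in Gata2cKO. Smooth muscle markers summed to 779 to 858 TPM in Gata2cKO and 1006 to 1116 TPM in controls (3 of 7 tested fell). Mesothelial markers summed to 573 to 670 TPM in Gata2cKO and 353 to 457 TPM in controls (4 of 7 rose), endothelial markers to 340 to 370 TPM in Gata2cKO and 248 to 301 TPM in controls (3 of 8 rose), and mast cell markers to 272 to 297 TPM in Gata2cKO and 97.0 to 140 TPM in controls (3 of 5 rose). In each of these 4 lists 1 gene had the opposite sign and did not pass. These were Des for smooth muscle (0.07), Wt1 for mesothelium (-0.02), Kdr for endothelium (-0.00029) and Kit for mast cells (-0.26). Tpsb2 and Cma1 made up most of each mast cell sum. Duct epithelium markers summed to 1308 to 1325 TPM in Gata2cKO and 1014 to 1097 TPM in controls (3 of 10 rose). Krt8, Krt18, Krt19 and Cldn4 made up most of each sum, and Krt19 is also on the mesothelial list. In this duct list 9 genes had a positive sign and 1 a negative one. Pax2, Pax8 and Lhx1 had log2 differences of 0.13, 0.03 and -0.43 and did not pass (limma adjusted p = 0.673, 0.896 and 0.212). Of 7 cartilage markers 3 were in the deposited data, with sums of 23.2 to 31.5 TPM in Gata2cKO and 27.5 to 36.2 TPM in controls, and Sox9 made up most of each sum. Of the listed markers that are in the deposited data, none was at 0 in all libraries. The same held for all 14366 genes there, so this does not show which cell types were present. The part of these markers in the proteoglycan values was not tested.

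The genes whose levels followed each member most closely over the 6 libraries were picked from 8976 genes at 5 TPM or more, and with so many candidates a high correlation is a description only. For Vcan these were Rbmx and Supt20 (Pearson r of log2(TPM + 1) 0.996 and 0.995, Spearman rho 0.943 each), for Ogn Bzw1 and Far1 (0.997 and 0.996), for Dcn Impa1 and Wdr3 (0.995 and 0.993) and for Lum Smim10l1 and Klhl13 (0.992 and 0.983). For Bgn they were Oraov1 and Zkscan17 (0.995 and 0.994), and for Fmod Bloc1s4 and Rpl35 (0.998 and 0.996). The matches of Fmod rest largely on control replicate 1, the lowest library for all of these genes. It had 40.5 TPM for Fmod (57.9 to 63.0 TPM elsewhere), 98.8 TPM for Bloc1s4 (151 to 168 TPM elsewhere) and 63.1 TPM for Rpl35 (163 to 186 TPM elsewhere). Genes with r above 0.95 numbered 107 for Vcan, 124 for Ogn, 76 for Dcn, 12 for Lum, 43 for Bgn and 156 for Fmod. All these values share the library totals of TPM, and the groups contribute to them.

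**Figure D5:**
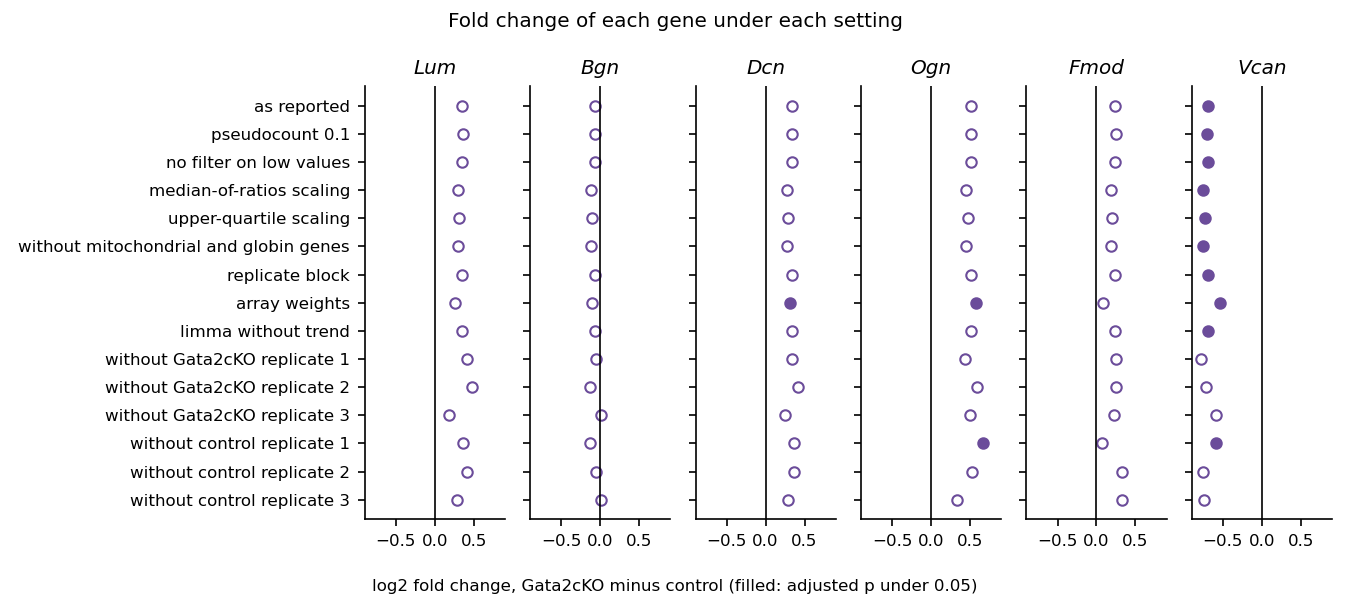
Log2 fold change of each member (horizontal axis) as reported and under 14 other settings (rows); filled points passed an adjusted p of 0.05. Vcan lies below 0 and Dcn, Lum, Ogn and Fmod above 0 in every row, and Vcan passed in 9 of the 14 other rows.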

How the data were processed

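Polyadenylated RNA from mesonephros had been sequenced in 6 libraries, per the labels' protocols. The authors deposited 1 gene table. Its values were taken as TPM made by the authors, from the column sums (997351 to 998844), since no header names the unit. The same deposited table gives the authors' log2 fold changes, p-values and adjusted p-values. The submitters' processing notes list STAR 2.7.11a, DESeq2, DESeq and GRCm38 without saying what each did. The quantifier and strand setting are not stated there. Depth is unknown, so no counting interval is given, and 0 columns of per-sample values were left unmapped.

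A gene entered the tests if 3 or more libraries reached 1 TPM (12300 of 14366). Groups were compared on log2(TPM + 1) by limma-trend (limma 3.58.1, R 4.3.3), two-sided, with Benjamini-Hochberg adjustment over all tested genes and a threshold of 0.05. Fold changes are Gata2cKO minus control on that scale, which understates changes of low genes. Ratios between genes were planned as descriptions, and their exact permutation test was added later. Alternatives changed the pseudocount to 0.1, the filter, the scaling, library weights, the variance trend and the replicate block, or removed 1 library. Where a removal left 2 libraries in a group, spread was pooled over both groups.

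Members and lists were chosen with earlier results of these data known. Named are the members, from each related list the 3 most significant called genes at most, with up to 2 of the rarer sign (or the gene of smallest p where none was called), the most abundant marker of each cell type, and the 2 genes most like each member. Of the 14 cell type lists, those not described above are macrophages (1 of 7 tested rose), nephron (2 of 2 tested rose), and red blood cells, skeletal muscle, testis, neural crest and glia, and adipocytes (0 called). Only 2 of the 8 nephron markers were in the deposited data, and Podxl made up most of their sum. Positions are from GENCODE M21 (14345 of 14366 identifiers matched) and promoters from RefSeq on GRCm38.p6, found for 4 of the 6 members.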

Additional observations from a re-analysis of the deposited data

How the results depend on the processing

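Vcan was lower in Gata2cKO under all 14 settings (log2 fold change -0.78 to -0.54) and passed in the 8 that kept all libraries. Over removals of a library it ran from -0.78 to -0.59 and lost its call in all but that of control replicate 1. Dcn, Lum, Fmod and Ogn kept a positive sign under all 14; array weights brought Dcn (0.31, adjusted p = 0.00923) and Ogn (0.57, adjusted p = 0.00348) past the threshold. Those weights ran from 0.209 for control replicate 1 to 7.60 for control replicate 2, and called 3080 genes higher and 1671 lower. Over removals Ogn ran from 0.33 to 0.67 and Bgn from -0.14 to 0.014. Members called higher were 0 (2 with array weights, 0 to 1 over removals) and called lower 1 (0 to 1 over removals).

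Of all genes, 705 were called higher and 214 lower. The counts were 502 and 397 with median-of-ratios scaling, 578 and 342 with upper-quartile scaling, 422 and 266 without mitochondrial and globin genes, and 584 and 190 with the replicate block, or 55.8%, 62.8%, 61.3% and 75.5% higher against 76.7%. Over removals 87 to 1108 were higher and 29 to 431 lower, the largest counts being those without control replicate 1 and the smallest those without Gata2cKO replicate 1. The 8 related lists gave 15 higher and 1 lower, with array weights 33 and 7, over removals 4 to 16 and 0 to 5. Lower calls were 3 with median-of-ratios, 3 with upper-quartile scaling, 2 without mitochondrial and globin genes and 2 with the block. Counts of higher calls under these settings are not given here, but Tmem2 and Dse lost theirs under each. Chst1, Lyve1 and Col12a1 lost theirs without mitochondrial and globin genes, Col3a1 with median-of-ratios, and Chst1 and Col3a1 with the block.

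The replicate numbers are shared by the groups. Deviations of same-numbered libraries correlated at 0.245, -0.0731 and 0.0384, against -0.277 to 0.215 for libraries of unlike number. With 3 libraries a group this cannot settle whether the numbers pair libraries. With the block Vcan had -0.69 (adjusted p = 0.0137) and no member changed its call. Signs of uncalled genes turned for Acta1 (0.55) and Fabp4 (-0.14) with array weights and over removals for Hba-a1 (-0.17 to 0.49), Acta1 (-0.87 to 0.61), Oraov1 (-0.14 to 0.0052) and Zkscan17 (-0.11 to 0.018). With unknown depth, precision rests on 3 libraries a group.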
